A study of Homo sapiens with 6 samples.

Results

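The genes described here are the prostaglandin receptors PTGER1, PTGER2, PTGER3, PTGER4, PTGFR and PTGIR and the prostaglandin synthases PTGS1, PTGS2, PTGES and PTGIS, measured in SY5Y cells, a human neuroblastoma line, with and without overexpression of the homeobox transcription factor DLX5. They are 10 of the 58735 genes in the count table, taken by their symbols, and all 10 were among the 17269 genes with enough counts to be tested. RNA was sequenced from 3 libraries of a line constructed to overexpress DLX5 and from 3 control libraries, all of the same SY5Y line in the same medium with fetal bovine serum. The labels give neither the vector, nor what the control cells carried, nor whether the overexpressing line was 1 clone. They do not say either whether the replicates were separate cultures, so the spread between libraries may be technical. The genes were chosen with their change between the 2 groups in view. Their differences are therefore given as a description, without a test. Where calls among them are counted, the calls only sort the genes and are no evidence for a change.

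Prostaglandins are lipid signals made from arachidonic acid, which phospholipases cut from membrane lipids. The cyclooxygenases PTGS1 (COX-1) and PTGS2 (COX-2) turn arachidonic acid into the unstable intermediate prostaglandin H2, and terminal synthases turn this into the active products: PTGES makes prostaglandin E2 and PTGIS makes prostacyclin. The products leave the cell and act on G protein-coupled receptors. EP1 to EP4, encoded by PTGER1 to PTGER4, bind prostaglandin E2, the FP receptor PTGFR binds prostaglandin F2alpha and the IP receptor PTGIR binds prostacyclin. EP2, EP4 and IP raise cyclic AMP through Gs, EP3 lowers it through Gi, and EP1 and FP mobilise calcium. In neuroblastoma the pathway is known for prostaglandin E2 as a growth signal and for cyclooxygenase inhibitors as experimental treatments.

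The libraries held between 14644077 and 16886026 reads assigned to genes. DLX5 stood at 1609 ± 59.1 CPM (read counts scaled to a common library size by TMM) in the overexpressing libraries and at 12.8 ± 0.804 CPM in the controls (SD, n = 3), so the libraries matched their labels. The contrast was broad, with 58.6% of all tested genes past an adjusted p of 0.05 (edgeR quasi-likelihood test), 29.8% higher and 28.8% lower with DLX5. Markers of sympathetic neuroblasts were present in both groups, except that TH was near 0 with DLX5 (2 counts against 80 in the controls). All 14 were lower with DLX5, their sum going from 7386 to 7997 CPM in the controls to 2552 to 2690 CPM. Fibroblast markers, none at 0 in either group, moved with the rises described below: 8 of 9 were higher, and their sum was 6575 to 6834 CPM with DLX5 against 1439 to 1491 CPM. Most of the sum with DLX5 came from the collagens COL3A1 and COL1A1, at 4383 and 1947 CPM against 1089 and 128 CPM in the controls. PDGFRA did not pass, and PDGFRB rose by only 0.29 ± 0.07 on the log2 scale. Of 6 tested smooth muscle markers 3 were higher and 1 lower, and all 7 listed summed to 754 to 782 CPM with DLX5 against 428 to 454 CPM. The 8 endothelial markers summed to 8.6 to 9.81 CPM against 4.26 to 4.39 CPM, and 6 with DLX5 and 7 in the controls were below 1 CPM. CDH5 had 1 count with DLX5 and 0 in the controls. Of 5 tested, PECAM1 and TEK were higher, from 2 and 6 control counts, and 3 did not pass. The 8 leukocyte markers reached at most 1.77 CPM in any library, and PTPRC, LYZ and CD3E were at 0 with DLX5. The 6 Schwann cell markers summed to 27.3 to 29.9 CPM with DLX5 and to 41.9 to 47.5 CPM in the controls. Their part in the changes of the prostaglandin genes was not tested, and in these bulk samples fewer cells of a type and less RNA per cell cannot be told apart.

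Of the 10 prostaglandin genes 6 were called higher and 3 lower, against 29.8% and 28.8% of all tested genes. The libraries of the 2 groups did not overlap for these 9 genes, as for 62.5% of all tested genes. Among these 10 genes the direction differed by step in the pathway. Both cyclooxygenases were lower with DLX5, PTGES and PTGIS were higher, and the receptors went from a set led by EP2 to a set led by EP4. The split does not hold for the terminal step as a whole. Of 7 tested prostanoid synthases outside the 10 genes, 5 were lower and 0 higher.

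**Figure D1:**
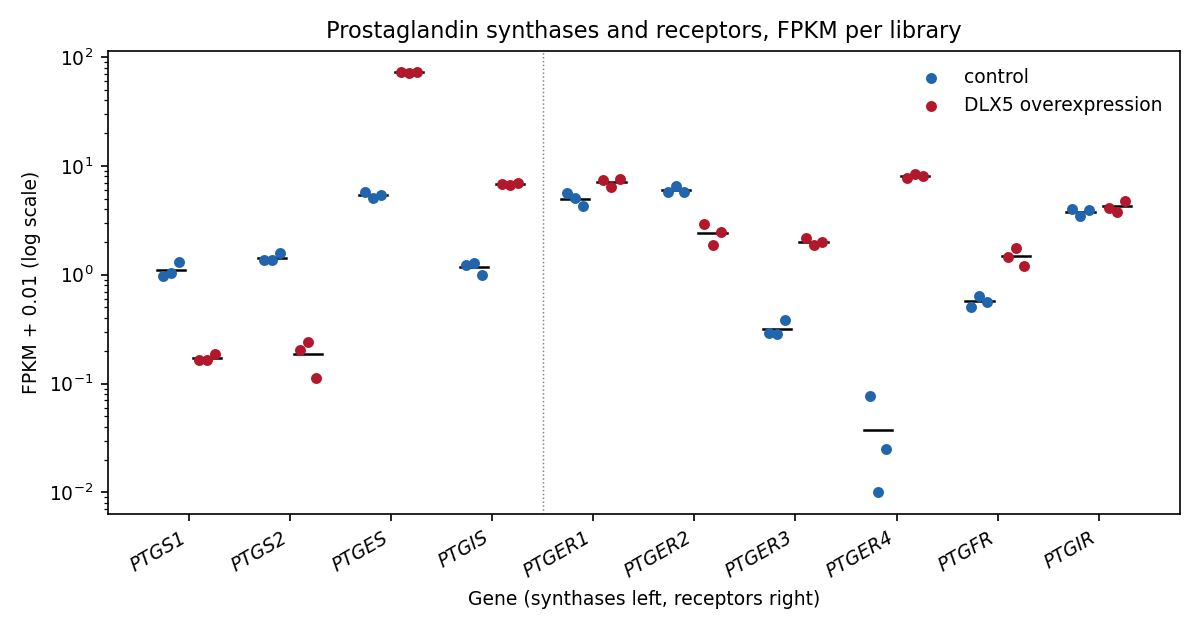
FPKM of the 10 genes in each library, on a log scale after adding 0.01 FPKM, with control libraries in blue, DLX5 overexpression in red and a bar at each mean. PTGES reached 72.2 FPKM on average with DLX5, PTGS1 and PTGS2 lay below their controls in every library, and PTGER4 went from near 0 to 8.02 FPKM.

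The cyclooxygenases commit arachidonic acid to the pathway. PTGS1, the constitutive form in most tissues (ENSG00000095303, chromosome 9, 122370530 to 122395703, plus strand, GRCh38), was at 5.63, 5.93 and 7.49 CPM in the controls and at 0.902, 0.904 and 1.03 CPM with DLX5. Every DLX5 library was below every control, and the log2 fold change was -2.74 ± 0.23 (± SE), which is 6.66-fold lower. PTGS2, the form induced by cytokines, growth factors and neuronal activity (ENSG00000073756, chromosome 1, 186671791 to 186680427, minus strand), was at 7.17, 7.25 and 8.28 CPM in the controls and at 1.02, 1.23 and 0.548 CPM with DLX5. It too was lower in all DLX5 libraries, with a log2 fold change of -3.02 ± 0.23, or 8.1-fold lower. The counts behind these levels were small with DLX5, 46 for PTGS1 and 45 for PTGS2 over the 3 libraries, and the 95% counting interval of the ratio of DLX5 to control was 0.107 to 0.203 for PTGS1 and 0.0877 to 0.167 for PTGS2. Per gene length, PTGS1 and PTGS2 together made up 2.51 ± 0.29 FPKM (read counts scaled to gene length and library size) in the controls and 0.338 ± 0.0542 FPKM with DLX5 (SD, n = 3). PTGS2 held 56.8% ± 1.79 of that sum in the controls and 50.7% ± 12.3 with DLX5, ranges that overlapped, so the data show no shift between the 2 forms beyond the spread of the libraries.

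The 2 terminal synthases among the 10 genes moved the other way. PTGES, the membrane-bound and inducible prostaglandin E synthase that is usually coupled to COX-2 (ENSG00000148344, chromosome 9, 129738331 to 129753047, minus strand), was at 11.1, 9.65 and 10.3 CPM in the controls and at 139, 135 and 140 CPM with DLX5. The 2 groups were tight and far apart, with a log2 fold change of 3.74 ± 0.08, or 13.4-fold higher. PTGIS, the cytochrome P450 that makes prostacyclin, best known from endothelium and smooth muscle (ENSG00000124212, chromosome 20, 49503874 to 49568146, minus strand), was at 6.9, 7.13 and 5.48 CPM in the controls and at 38.1, 37.3 and 39.2 CPM with DLX5. That is a log2 fold change of 2.55 ± 0.10, or 5.87-fold higher, with no overlap. PTGES was the more abundant per length in both groups, at 72.2 ± 1.22 against 6.79 ± 0.15 FPKM for PTGIS with DLX5 and at 5.41 ± 0.371 against 1.16 ± 0.158 FPKM in the controls. The ratio of PTGES to PTGIS was 4.74 ± 0.773 in the controls and 10.6 ± 0.119 with DLX5.

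Setting PTGES and PTGIS against the cyclooxygenases shows how far the balance of these transcripts moved. In the controls PTGES held 2.17 ± 0.306 times the FPKM of PTGS1 and PTGS2 together, between 1.89 and 2.5 in the 3 libraries. With DLX5 this ratio was 218 ± 39.9, between 183 and 262. The ratio of PTGIS to the cyclooxygenases was 0.469 ± 0.109 in the controls and 20.5 ± 3.93 with DLX5. The ratio for PTGES does not describe prostaglandin E synthesis as a whole. The other prostaglandin E synthase genes were lower with DLX5. PTGES3 was at 88.1 ± 7.32 FPKM in the controls and 61.8 ± 3.55 with DLX5, and PTGES2 at 22.7 ± 2.85 and 18.1 ± 1.39 FPKM. All these are measures of transcripts, and neither enzyme activity nor prostaglandins were measured.

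**Figure D2:**
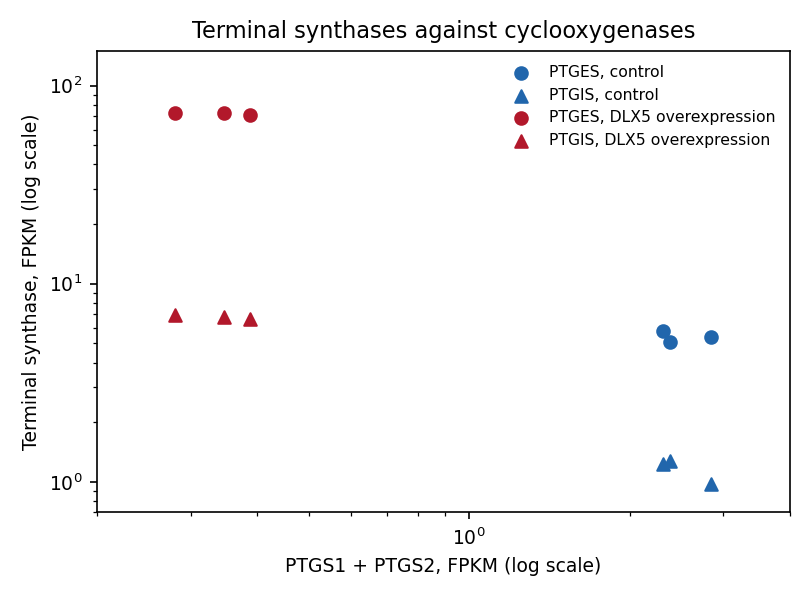
FPKM of the terminal synthases PTGES (circles) and PTGIS (triangles) against the summed FPKM of PTGS1 and PTGS2 in each library, both axes on a log scale. The 3 DLX5 libraries (red) lie at a cyclooxygenase sum of 0.28 to 0.387 FPKM and above the controls (blue) for both synthases, and the controls lie at 2.32 to 2.85 FPKM.

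The bases before the start sites of both cyclooxygenases and of PTGES, which moved in opposite directions, and of the receptor PTGER2 are shown for comparison of their promoters. The sequences are RefSeq's on GRCh38.p14, 250 bases up to the base before each start, 5′ to 3′ on the gene's strand, and PTGS1 has 2 listed starts. Capitals mark matches, on either strand, to any of 6 motifs. The TATA box was searched as TATAAA, which places the polymerase at many inducible genes. The CCAAT box was searched as its own letters. The GC box, bound by SP1 and its relatives, was searched as GGGCGG. The core of the cyclic AMP response element was searched as TGACG. The E-box that MYC and MYCN bind was searched as CACGTG. The core bound by many homeodomains, the DNA-binding part of proteins such as DLX5, was searched as TAATT.
PTGS2, chr1:186680424-186680673, minus strand: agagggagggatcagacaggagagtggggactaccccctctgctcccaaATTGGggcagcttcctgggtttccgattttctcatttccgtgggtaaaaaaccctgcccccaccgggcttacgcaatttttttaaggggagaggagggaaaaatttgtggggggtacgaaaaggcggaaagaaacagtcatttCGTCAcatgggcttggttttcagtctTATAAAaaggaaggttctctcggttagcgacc
PTGS1 upstream start, chr9:122370283-122370532, plus strand: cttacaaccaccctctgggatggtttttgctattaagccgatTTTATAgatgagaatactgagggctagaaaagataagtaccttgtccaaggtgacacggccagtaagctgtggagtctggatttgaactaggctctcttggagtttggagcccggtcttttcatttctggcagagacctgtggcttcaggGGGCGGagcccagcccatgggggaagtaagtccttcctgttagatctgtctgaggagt
PTGS1 downstream start, chr9:122375052-122375301, plus strand: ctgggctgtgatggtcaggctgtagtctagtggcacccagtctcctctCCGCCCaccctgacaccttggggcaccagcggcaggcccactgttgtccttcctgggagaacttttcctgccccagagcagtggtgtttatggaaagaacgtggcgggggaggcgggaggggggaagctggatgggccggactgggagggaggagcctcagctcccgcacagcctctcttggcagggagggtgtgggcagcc
PTGES, chr9:129753043-129753292, minus strand: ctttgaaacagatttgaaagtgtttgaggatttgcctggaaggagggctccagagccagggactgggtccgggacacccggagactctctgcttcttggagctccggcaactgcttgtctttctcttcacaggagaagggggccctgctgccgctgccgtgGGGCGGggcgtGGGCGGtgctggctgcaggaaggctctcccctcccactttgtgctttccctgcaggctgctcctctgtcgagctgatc
PTGER2, chr14:52314062-52314311, plus strand: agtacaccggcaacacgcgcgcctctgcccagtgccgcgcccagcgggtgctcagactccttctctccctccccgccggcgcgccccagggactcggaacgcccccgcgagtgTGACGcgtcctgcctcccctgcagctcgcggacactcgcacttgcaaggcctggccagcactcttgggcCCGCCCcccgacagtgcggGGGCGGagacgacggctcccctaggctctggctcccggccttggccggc

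PTGS2 has the only TATA box on its own strand among the windows shown, with its first base 32 bases before the start, and the core of a cyclic AMP response element 58 bases before it on the opposite strand. PTGES has a pair of GC boxes, 89 and 78 bases before its start, and no TATA box. The window of PTGER2 is the richest in CpG of those shown, with 28 CpG dinucleotides against a median of 11 over all promoter windows, and holds TGACG 137 bases before the start. Of the 10 genes 7 had entries, with 8 windows in all; PTGER3, PTGIR and PTGIS had none. The homeodomain core TAATT was in 0 of the 8 windows and in 23.1% of all 35116 promoter windows of this length, and the E-box CACGTG was in 0 of 8 and in 6.34% of all. GC boxes were in 7 of 8 windows against 42.6% of all, TATAAA in 2 of 8 against 10.7%, TGACG in 2 of 8 against 21.2% and CCAAT in 2 of 8 against 32.0%. None of these motifs contains another. A match is a description of the letters and not of a factor bound there, and elements outside the windows were not searched.

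Among the receptors, EP4 moved most. PTGER4 (ENSG00000171522, chromosome 5, 40679498 to 40693735, plus strand) had 4, 0 and 1 counts in the controls and 516, 513 and 526 counts with DLX5, which is 0.268, 0 and 0.0609 CPM against 31, 33.1 and 32 CPM. The control libraries were thus at or near the limit of detection, where a count of 0 allows up to 0.18 to 0.201 CPM in a control library, and the DLX5 libraries had an SD of 1.04 CPM. The ratio of scaled counts was 308, with a 95% counting interval of 132 to 949. The fitted log2 fold change of 8.16 ± 0.24 rests on 5 control counts. Leaving out control replicate 1 gave 9.72 and leaving out control replicate 2 gave 7.58. PTGER4 overlaps TTC33 on the other strand, but they share no exonic base in GENCODE 29, and TTC33 had 683 counts with DLX5 and 789 in the controls. The window before its RefSeq start held 26 CpG dinucleotides and 72.8% G and C, against medians of 11 and 58% over all promoter windows, with 4 GC boxes and a pair of CCAAT boxes. It lies within the first exon of PTGER4 in GENCODE 29, and its letters are therefore not shown.

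EP2, the other prostaglandin E2 receptor that couples to Gs, went down. PTGER2 (ENSG00000125384, chromosome 14, 52314305 to 52328606, plus strand) was at 14.4, 16.4 and 14.4 CPM in the controls and at 7.34, 4.65 and 6.21 CPM with DLX5. All DLX5 libraries were below all controls, with a log2 fold change of -1.31 ± 0.14, or 2.48-fold lower. IP, the third Gs-coupled receptor, had no call. PTGIR (ENSG00000160013, chromosome 19, 46620468 to 46625118, minus strand) was at 14.3, 12.4 and 13.9 CPM in the controls and at 14.8, 13.4 and 17.2 CPM with DLX5. The values overlapped and the log2 fold change was 0.16 ± 0.11. PTGIR is the receptor for the product of PTGIS, so on this arm the synthase was 5.87-fold higher while the receptor was the 1 gene of the 10 without a call.

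EP3, the receptor that couples to Gi, was higher. PTGER3 (ENSG00000050628, chromosome 1, 70852353 to 71047808, minus strand) was at 2.75, 2.7 and 3.59 CPM in the controls and at 21.1, 18 and 19.4 CPM with DLX5. That is 6.44-fold higher, 2.69 ± 0.14 on the log2 scale. The gene makes several splice forms with different C-terminal tails, which gene counts do not separate. The receptors that mobilise calcium were higher by less. PTGFR (ENSG00000122420, chromosome 1, 78303884 to 78539749, plus strand) was at 2.35, 3 and 2.62 CPM in the controls and at 6.98, 8.33 and 5.6 CPM with DLX5, or 2.61-fold higher (log2 1.38 ± 0.19). PTGER1 (ENSG00000160951, chromosome 19, 14472466 to 14475362, minus strand) was at 8.04, 7.25 and 6.09 CPM against 10.5, 9.1 and 10.9 CPM, or 1.43-fold higher (log2 0.52 ± 0.14). Neither gene's groups overlapped, though the lowest DLX5 value of PTGER1 and its highest control lay only about as far apart as its SDs of 0.947 and 0.981 CPM.

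Per gene length, the order of the receptors changed at the top and at the bottom. In the controls PTGER2 led at 6.05 ± 0.458 FPKM, followed by PTGER1 at 4.98 ± 0.682, PTGIR at 3.79 ± 0.282, PTGFR at 0.559 ± 0.0685, PTGER3 at 0.310 ± 0.0521 and PTGER4 at 0.0275 ± 0.0352 FPKM (SD, n = 3), and no neighbours in this order overlapped. With DLX5 PTGER4 led at 8.02 ± 0.286 FPKM, followed by PTGER1 at 7.1 ± 0.637, PTGIR at 4.22 ± 0.525, PTGER2 at 2.43 ± 0.535, PTGER3 at 2.0 ± 0.157 and PTGFR at 1.47 ± 0.292 FPKM. Here the values of PTGER2 and PTGER3 overlapped and those of the other neighbours did not. Per length, PTGER1, PTGIR and PTGER3 thus held the same places in both groups, and PTGER4, PTGER2 and PTGFR changed theirs. This order depends on the gene lengths used, such as 9653 bases for PTGER3 and 1421 for PTGER1. In CPM, PTGER3 was at 19.5 with DLX5, above PTGIR at 15.1 and PTGER1 at 10.2 and below only PTGER4 at 32.1. In the controls it was at 3.01 CPM, below PTGER1 at 7.13.

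The receptor sum was 25.2 ± 1.14 FPKM with DLX5 and 15.7 ± 0.715 FPKM in the controls. The makeup by coupling shifted less than the members did. The Gs-coupled receptors held 62.9% ± 2.31 of the sum in the controls and 58.2% ± 0.614 with DLX5, since PTGER4 went from 0.172% ± 0.215 to 31.9% ± 2.54 while PTGER2 went from 38.5% ± 2.76 to 9.59% ± 1.79 and PTGIR from 24.2% ± 2.32 to 16.7% ± 1.49. The share of the Gi-coupled PTGER3 was 1.98% ± 0.432 in the controls and 7.92% ± 0.417 with DLX5. As shares of FPKM they depend on the gene lengths, and PTGER3 has the longest of the receptors. PTGER1 and PTGFR together held 35.1% ± 2.7 and 33.9% ± 0.227, ranges that overlapped.

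**Figure D3:**
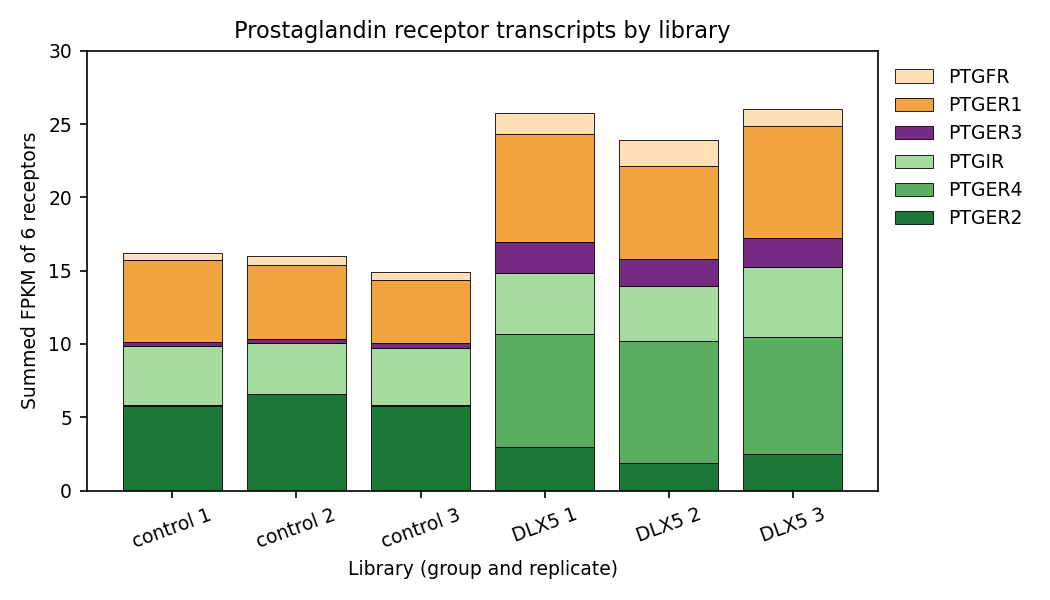
Summed FPKM of the 6 receptor genes in each library, stacked by gene, with the Gs-coupled receptors in green, PTGER3 in purple and the calcium-mobilising receptors in orange. PTGER2 is the largest green block in the 3 controls and PTGER4 in the 3 DLX5 libraries, and the whole bar is higher with DLX5 (23.9 to 26 FPKM) than in the controls (14.9 to 16.2 FPKM).

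The other genes of prostanoid synthesis, listed by function, were mostly lower. Of 7 tested synthases outside the 10 genes 5 fell, 0 rose and 2 did not pass (median log2 fold change -0.49, against a median of 0.00 over all tested genes). This count and those of the lists below stand beside 29.8% of all tested genes called higher and 28.8% called lower. PTGES3, the cytosolic prostaglandin E synthase also known as the HSP90 co-chaperone p23, fell from 302 ± 25.4 to 212 ± 11.4 CPM (edgeR, adjusted p = 1.67e-07). PTGES2, the other membrane-associated prostaglandin E synthase, fell from 69.4 ± 8.75 to 55.4 ± 4.43 CPM (adjusted p = 0.0014). The 3 genes for prostaglandin E synthases thus moved in different directions. PTGES held 4.67% ± 0.505 of their summed FPKM in the controls and 47.5% ± 1.11 with DLX5. AKR1B1 and PRXL2B, both able to make prostaglandin F2alpha, fell by 0.51 ± 0.06 and fell by 0.49 ± 0.08 on the log2 scale. TBXAS1, the thromboxane synthase, fell from 4.53 ± 0.369 to 3.11 ± 0.25 CPM (edgeR, adjusted p = 0.0162), a call that did not pass without DLX5 overexpression replicate 1 (adjusted p = 0.0679) or without control replicate 1 (adjusted p = 0.0618). AKR1C3, which has close paralogs that can share its reads, was at 2.95 ± 0.795 against 3.66 ± 0.477 CPM, and CBR1 was at 30.1 ± 0.652 against 30.2 ± 2.06 CPM. The prostaglandin D synthases were barely seen, PTGDS with 2 counts against 14 and HPGDS with 0 in every library.

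Of the receptors outside the 10 genes only the thromboxane receptor TBXA2R could be tested, at 4.6 ± 0.41 CPM with DLX5 and 5.48 ± 0.128 CPM in the controls (log2 fold change -0.25 ± 0.16, edgeR adjusted p = 0.196). The prostaglandin D2 receptors PTGDR and PTGDR2 had 0 and 6 counts with DLX5 and 6 and 14 counts in the controls.

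Upstream, the supply of arachidonic acid held more rises than falls. Of 9 tested genes 7 rose, 1 fell and 1 was without a call (median 0.46), and the other 11 of the 20 listed, most of them secreted phospholipases, were too low to test. MGLL, the lipase that frees arachidonic acid from the endocannabinoid 2-arachidonoylglycerol, was at 6.7, 7.31 and 7.25 CPM in the controls and at 83.3, 87.2 and 79.2 CPM with DLX5, a rise of 3.55 ± 0.09 (edgeR, adjusted p = 4.25e-22). DAGLA, which makes that substrate, was the gene that fell, by 0.60 on the log2 scale (SE 0.08, edgeR adjusted p = 2.38e-07). Its paralog DAGLB, named after its values were seen, rose from 25.5 ± 0.961 to 35.1 ± 2.73 CPM (edgeR, adjusted p = 3.61e-05). PLA2G4A, the cytosolic phospholipase that classically feeds the cyclooxygenases, rose from 0.19 ± 0.0736 to 1.86 ± 0.414 CPM, with 9 control counts, and PLA2G4C rose from 1.14 ± 0.254 to 3.64 ± 0.271 CPM (edgeR, adjusted p = 4.58e-07 and 2.78e-06).

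Downstream of synthesis, of 6 genes of transport and inactivation 3 rose, 1 fell and 2 did not pass (median 0.22). PTGR1, a reductase that inactivates 15-keto-prostaglandins, rose from 10.5 ± 0.781 to 35 ± 0.935 CPM (edgeR, adjusted p = 8.58e-15). SLCO2A1, the carrier that takes prostaglandins up for breakdown, had 1.01, 1.62 and 3.29 CPM in the controls and 6.02, 6.13 and 6.39 CPM with DLX5 (edgeR, adjusted p = 3.17e-06). The controls were unequal, and leaving out control replicate 3 moved the log2 fold change from 1.63 to 2.21. ABCC4, an exporter of prostaglandin E2, rose by 0.31 ± 0.08 (edgeR, adjusted p = 0.00228). HPGD, the 15-hydroxyprostaglandin dehydrogenase that starts inactivation, was near the floor and fell from 1.05 ± 0.234 to 0.455 ± 0.0537 CPM (edgeR, adjusted p = 0.013), a call lost with DESeq2 (adjusted p = 0.0505) and without control replicate 1 or 3 (adjusted p = 0.0547 and 0.0505). PTGR2 was at 5.18 ± 0.686 against 5.23 ± 0.622 CPM and ZADH2 at 39.8 ± 2.58 against 36.5 ± 4.03 CPM.

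**Figure D4:**
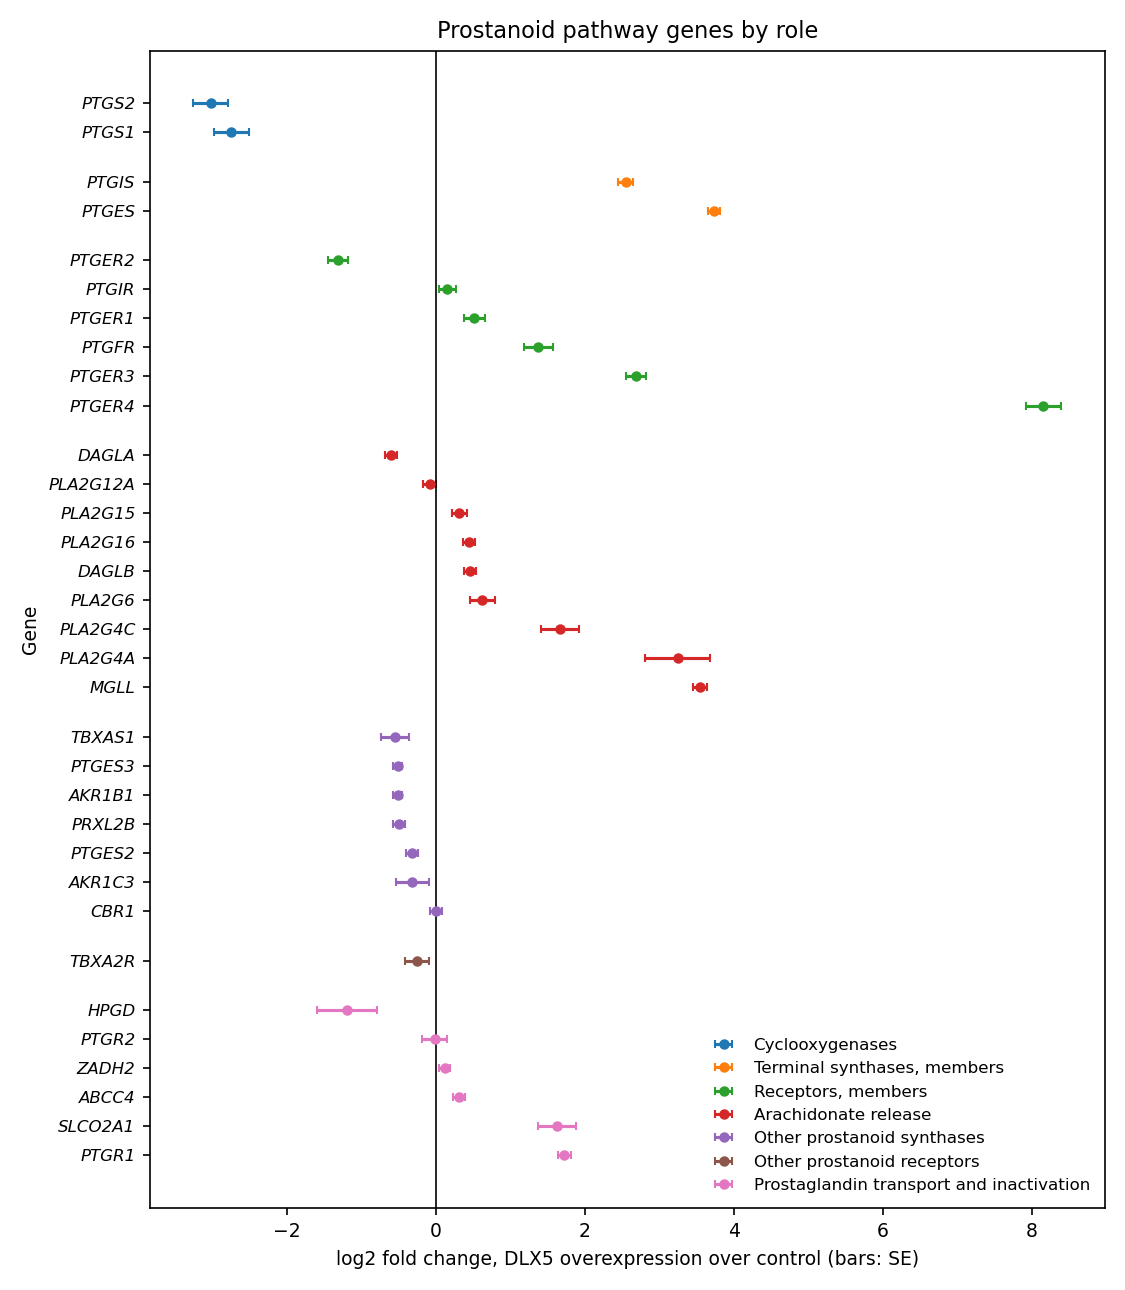
Log2 fold changes of DLX5 overexpression over control (points) with their standard errors (bars) for the 10 genes and for the tested genes of 4 surrounding lists, grouped by role. The cyclooxygenases lie left of 0 at -3.02 and -2.74, PTGIS and PTGES lie right of 0 at 2.55 and 3.74, PTGER4 is the farthest point at 8.16, and no other prostanoid synthase lies right of 0.

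Genes on which the receptors act were measured next. Of 27 tested genes of Gs signalling and cyclic AMP turnover 7 rose, 12 fell and 8 did not pass (median -0.05). These are shares of 25.9% higher and 44.4% lower, beside 29.8% and 28.8% of all tested genes. PDE3A and PDE4A, phosphodiesterases that break cyclic AMP down, rose from 17.8 ± 1.73 to 115 ± 6.34 CPM and from 9.7 ± 0.506 to 29.1 ± 0.128 CPM (edgeR, adjusted p = 1.87e-20 and 9.74e-14). The other phosphodiesterases listed, named after their values were seen, went both ways. PDE4B and PDE4D rose (log2 fold changes 0.63 ± 0.08 and 0.43 ± 0.10) and PDE4C did not pass. PDE3B, PDE7A and PDE7B fell (-0.70 ± 0.08, -0.19 ± 0.07 and -0.62 ± 0.20). RAPGEF4, the cyclic AMP sensor EPAC2 of neurons and endocrine cells, fell from 63.1 ± 1.27 to 25.6 ± 0.65 CPM, and the protein kinase A subunit PRKAR2B from 97.0 ± 2.1 to 65.8 ± 3.87 CPM (edgeR, adjusted p = 2.05e-14 and 3.46e-08). RAPGEF3, the paralog of RAPGEF4 and also named after its values were seen, rose from 1.92 ± 0.185 to 4.84 ± 0.0801 CPM (edgeR, adjusted p = 3.57e-06). Genes known to respond to cyclic AMP went both ways, 7 of 13 higher and 5 lower (median 0.33). BDNF, a neurotrophin, had 21 counts over the controls and was at 16.7 ± 0.515 CPM with DLX5, a rise of 5.23 ± 0.21, and the phosphatase gene DUSP1 rose by 1.58 ± 0.07. The secretory granule genes SCG2 and VGF fell by 1.60 ± 0.06 and fell by 1.05 ± 0.07 on the log2 scale.

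Of 15 genes for Gi, Gq and G12 proteins and their effectors 4 rose, 8 fell and 3 did not pass (median -0.18). The inhibitory alpha subunits went both ways. GNAI2 and GNAI1 rose by 1.05 ± 0.06 and 1.0 ± 0.06, while GNAI3 and GNAO1, named after their values were seen, fell by 0.42 ± 0.07 and fell by 0.55 ± 0.06 on the log2 scale (edgeR, adjusted p = 7.22e-06 and 2.23e-08). The calcium release channels ITPR3 and ITPR2 rose by 1.53 ± 0.09 and 0.92 ± 0.07 (log2 fold change ± SE). Other genes of the Gq arm, named after their values were seen, did not rise. GNAQ and GNA11 fell (-0.18 ± 0.07 and -0.29 ± 0.07), as did the phospholipase C genes PLCB1 and PLCB4 (-0.73 ± 0.11 and -0.54 ± 0.10). ITPR1, PLCB2 and PLCB3 did not pass. Among 7 genes of receptor desensitisation 1 rose and 4 fell (median -0.26). GRK3, a kinase that turns off G protein-coupled receptors, fell from 312 ± 20.1 to 104 ± 4.92 CPM (edgeR, adjusted p = 1.64e-17), GRK6 fell by 0.57 ± 0.07, ARRB2 fell by 0.26 ± 0.07, and GRK5 rose by 0.49 ± 0.07.

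PTGS2 is induced by inflammatory signalling in many cells, and the genes known to regulate it mostly rose while PTGS2 itself was lower. Of 17 tested regulators 13 rose, 2 fell and 2 had no call (median log2 fold change 1.09). TNFRSF1A, a receptor for tumour necrosis factor, rose from 17.5 ± 1.27 to 61.9 ± 2.22 CPM and the NF-kappaB subunit NFKB2 from 53.0 ± 1.64 to 115 ± 1.82 CPM (edgeR, adjusted p = 1.28e-16 and 2.21e-14). CELF2, an RNA-binding protein known to hold back translation of PTGS2 mRNA, rose from 2.66 ± 0.281 to 27.1 ± 1.64 CPM (edgeR, adjusted p = 6.8e-18). ANXA1, an annexin known as an inhibitor of phospholipase A2, was at 1.94, 0.959 and 0.548 CPM in the controls and at 48.1, 58.4 and 52.8 CPM with DLX5, a rise of 5.55 ± 0.17 (edgeR, adjusted p = 4.96e-20). The list holds both activators and repressors of PTGS2, so its median gives no direction for PTGS2.

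The lipoxygenases compete for arachidonic acid and lead to leukotrienes. Of 11 tested genes of that arm 4 rose, 1 fell and 6 did not pass (median 0.45). The leukotriene B4 receptor LTB4R rose from 8.72 ± 1.21 to 18.8 ± 2.27 CPM and LTA4H, which makes leukotriene B4, rose by 0.38 ± 0.07 (edgeR, adjusted p = 1.65e-08 and 2.3e-05). ALOX5AP, the partner of 5-lipoxygenase, rose to 1.38 ± 0.156 CPM from 9 control counts, and leaving out control replicate 1 moved its log2 fold change from 2.83 to 3.82. GGT5, which trims leukotriene C4, fell from 7.57 ± 0.184 to 1.76 ± 0.355 CPM (edgeR, adjusted p = 3.94e-10). ALOX5 itself was too low to test. Over all 10 surrounding lists 46 of 113 tested genes rose and 39 fell, shares of 40.7% and 34.5% beside 29.8% and 28.8% of all tested genes.

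**Figure D5:**
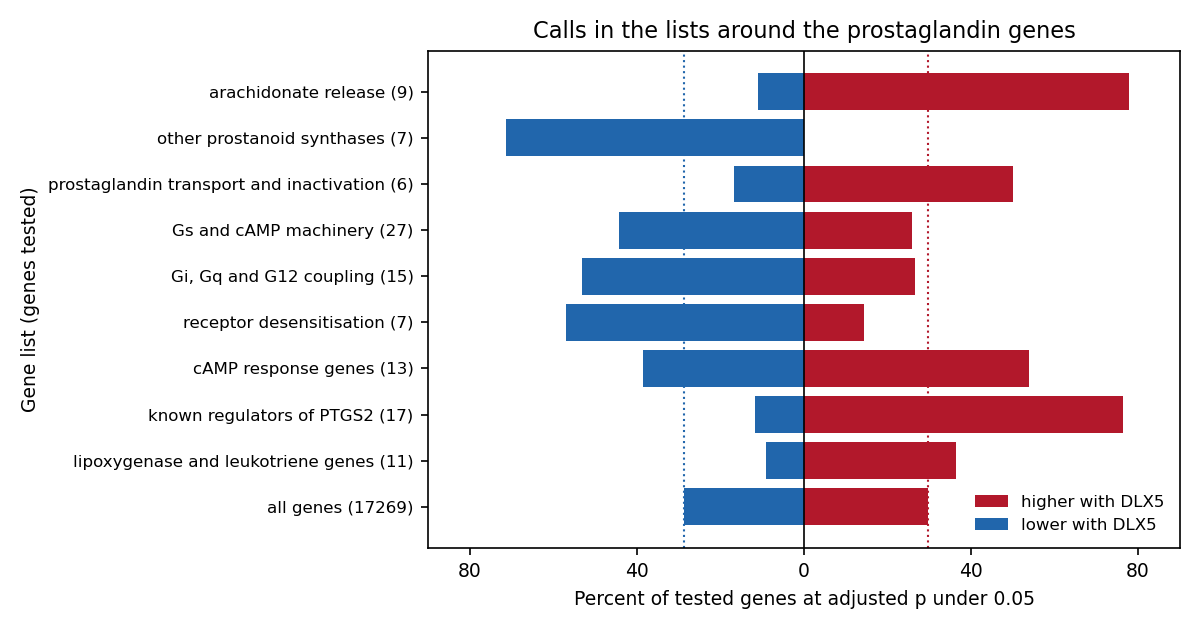
Percent of the tested genes of each pathway list with more than 1 tested gene (marker lists not drawn), and of all genes, that were higher (red, right) or lower (blue, left) with DLX5 at an adjusted p under 0.05, with the number tested in brackets and dotted lines at the shares of all genes. The list of other prostanoid synthases has no red bar, and arachidonate release and the regulators of PTGS2 have the longest red bars drawn, at 77.8% and 76.5%.

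Likeness between genes was measured as the root mean square difference of log2(FPKM + 0.1) over the 6 libraries, among tested protein-coding genes. The closest genes to PTGER4 were IL18, FGL2 and HMX2, at 0.21, 0.25 and 0.32, and only 8 genes lay within 0.5. PTGES was closest to IGFBP6 (0.29), HSPA2 (0.30) and KRT18 (0.36), with 12 genes within 0.5. PTGS2 was closest to RAB37 (0.31), then to PTGS1 and S100B (0.37 each), while PTGS1 was closest to HTR1E (0.23), KIAA1024L (0.27) and EYA1 (0.32). PTGIS was closest to the laminin subunit LAMB3 (0.11), GMPR (0.16) and TENT5A (0.22), and PTGER3 to ERBB4 (0.18), COBLL1 (0.18) and GDPD5 (0.19). PTGER2 was closest to TCEAL2 (0.18), PGBD5 (0.21) and SEPT3 (0.21), and PTGFR to PPP2R2B (0.14), PRKCH (0.15) and MITF (0.15). The patterns of PTGER1 and PTGIR were common ones, with 1780 and 1889 genes within 0.5. SERTAD3, PCDHB6 and SIRT7 were closest to PTGER1, at 0.10 each, and ZFYVE19, INVS and IL18BP to PTGIR, at 0.06, 0.07 and 0.07.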

How the data were processed

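Total RNA of 6 SY5Y libraries was taken up in Trizol and made into libraries by a NEBNext Ultra protocol, per the labels. The authors deposited read counts, 1 whole number for each gene in each library. The submitters' processing notes list HISAT2 2.0.5, featureCounts 1.5.0-p3 and hg19 but no settings. Whether reads were counted by strand is not given. All 58735 genes have the starts and ends of GENCODE 29 on GRCh38, and coordinates are given as GRCh38. None of the 10 genes shares exonic bases with another gene there, and 4 overlap another gene's span. The FPKM values deposited by the authors equal the counts over gene length and a total of 0.968 to 1.03 times the count sum, so they are not independent of the counts.

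The main test was that of edgeR 4.0.16, run in R 4.3.3 on the counts (filterByExpr, TMM, two-sided quasi-likelihood test, Benjamini-Hochberg over 17269 genes, no covariate, adjusted p under 0.05). Errors of levels are SDs of 3 libraries, and errors of log2 fold changes are standard errors (each change divided by the root of its F statistic). Intervals of count ratios are exact binomial ones at 95%, and these and the limit from a count of 0 (3 counts) cover counting error only. With 3 libraries a group, the smallest exact permutation p is 0.1, and all p-values printed are edgeR's or DESeq2's. Pairs of libraries within a group had a chi-square per degree of freedom of 2.23 to 5.07, where 1 is sampling noise, so none was taken for a copy. On simulated counts the test found 76% of 25 genes with a 1.5-fold change, 82.8% of 29 at 2-fold and 100% of 27 at 4-fold, among 16862 tested, and called 7 of 16753 unchanged genes. The simulation gave all genes the same coefficient of variation, 6.17%, and changed few genes. In the data 58.6% of tested genes were called, so these rates need not hold there. They cover only changed genes that had enough counts to be tested.

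The 10 genes and the lists were chosen with earlier results of these data known. Named are the 10 genes, DLX5, all genes of the lists of other prostanoid synthases, receptors and of transport and inactivation, up to 4 genes with the smallest adjusted p of each other list, and for genes at 1 FPKM or more the 3 most alike. MYCN, which the rule also names, was at 26.6 ± 0.344 CPM with DLX5 and 4.89 ± 0.488 CPM in the controls. Genes marked as named after their values were seen lie outside the rule. PRXL2B was listed under its older symbol and matched through RefSeq synonyms. The alternatives were RLE factors, no scaling factors, DESeq2 1.42.0, limma-voom (limma 3.58.1), no filter, 1 CPM in 3 libraries, a replicate block, limma fits to log2(FPKM + 1) or log2(FPKM + 0.1), each library left out, and CPM per kilobase for ratios. Figures were drawn with matplotlib 3.10.9.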

Additional observations from a re-analysis of the deposited data

How the results depend on the processing

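The 6 higher and 3 lower calls among the 10 prostaglandin genes kept their direction and their side of the threshold under all 15 alternatives, and PTGIR stayed without a call. The genes were chosen with their change in view, and every fit drew on the same libraries. The stable calls therefore describe the processing and are no further evidence for a change. Log2 fold changes were much smaller for low genes on log2(FPKM + 1) values: 3.13 for PTGER4, 1.19 for PTGER3, 0.66 for PTGFR, -0.84 for PTGS1 and -1.05 for PTGS2, since the added 1 exceeds or nears their FPKM. Of the surrounding genes 42 to 47 were called higher and 31 to 40 lower. Genes without a call changed sign near 0: CBR1 was at 0.00 with the filter of 1 CPM in 3 libraries and without DLX5 overexpression replicate 3, at 0.01 without DLX5 overexpression replicate 1 and at 0.05 without control replicate 1, and PTGR2 was at 0.09 without DLX5 overexpression replicate 2 and at 0.06 without control replicate 3. Over the fits that left out 1 library each, CBR1 ranged from -0.04 to 0.05 and PTGR2 from -0.10 to 0.09. ZADH2 passed without control replicate 2 (log2 fold change 0.21, edgeR adjusted p = 0.0399).

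The replicate numbers were not shown to pair the libraries, since deviations of same-numbered libraries correlated at 0.00688, 0.0944 and -0.0399 across genes. With the replicate number as a block, 5208 genes were higher and 5016 lower, against 5152 and 4969 without it, and among the 10 genes 6 and 3. PTGS1, PTGS2 and the control level of PTGER4 rest on few counts, which limits the precision of their fold changes.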

Other observations

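The nearest protein-coding genes on either side of the 10 prostaglandin genes, leaving out genes that overlap them, were looked up after the data had been seen. Of these 20 genes 16 could be tested, and 9 rose, 4 fell and 3 did not pass, beside 29.8% higher and 28.8% lower of all tested genes. PTGS2 and PLA2G4A are neighbours, 148526 bases apart, and went in opposite directions, PTGS2 by -3.02 and PLA2G4A by 3.25 (log2 fold change). PDC, on the other side of PTGS2, had 2 control counts and 47 with DLX5, a 23.3-fold ratio (95% counting interval 6.09 to 198). PTGER4 overlaps TTC33, which had 683 counts with DLX5 and 789 in the controls. Beyond TTC33, the nearest on either side were DAB2, an endocytic adaptor gene with 1 control count and 276 counts with DLX5 (ratio 273, interval 48.6 to 10825), and PRKAA1, a subunit gene of AMP-activated kinase that rose by 0.54 ± 0.07. DAB2 is 1217198 bases away from PTGER4 and PRKAA1 65644. Both neighbours of PTGES rose by less than PTGES did, the homeobox gene PRRX2 by 0.68 ± 0.11 and TOR1B by 0.19 ± 0.07. GNG8, next to PTGIR, fell by 1.21 ± 0.11.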
